A study of Mus musculus with 18 samples.

Results

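The genes described here encode the classical major histocompatibility complex (MHC) class II molecules of the mouse and the 2 proteins most closely tied to them. They were taken by symbol from a table of 24341 genes: H2-Aa, H2-Ab1, H2-Eb1, Cd74 and Ciita, and all 5 were found. Their transcript levels were measured in 18 hearts of C57BL/6 mice aged 12 weeks, 3 hearts in each of 6 groups. The groups combined 2 genotypes, wild type (WT) and a cardiac-specific knockout of Med13 (labelled cKO), with 3 treatments. These were normal chow (NC), a diet with PTU (propylthiouracil, which blocks the making of thyroid hormone), and the PTU diet followed by T3 (triiodothyronine, the active hormone). Mice entered the diets when 8 weeks old and stayed on them for 4 weeks, and the T3 groups then received an injection on each of 3 days. The labels do not name the Cre driver of the knockout, and all mice shared the C57BL/6 background. Nor do they say outright that no animal gave more than 1 library, so the p-values below reflect sample-to-sample spread, which may be partly technical.

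MHC class II molecules are pairs of an alpha and a beta chain that carry peptides from engulfed proteins to the cell surface, where CD4+ T cells read them. They are made mainly by dendritic cells, B cells and activated macrophages, all of which are scarce beside the muscle, endothelial and stromal cells of a heart. H2-Aa and H2-Ab1 encode the alpha and beta chains of the I-A molecule. H2-Eb1 encodes the beta chain of the I-E molecule, whose alpha chain gene is defective in C57BL/6 mice. Cd74, the invariant chain, escorts new class II molecules to the compartment where peptides are loaded. Ciita is the transactivator that switches the family on: it binds no DNA itself but docks on factors held at a shared pair of promoter elements, the X box and the Y box.

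The promoters of 3 genes of the family are shown because the levels of the members varied together from heart to heart. RefSeq promoters were held for 2 of the 5 members, H2-Aa and H2-Eb1. H2-DMb1, the beta chain of the peptide-loading molecule H2-DM, is shown beside them because it moved with the members. H2-DMa, another gene of peptide loading, moved with the members as closely, and its promoter is not shown. The table used had no entry for H2-Ab1, Cd74 or Ciita. Each sequence is the 150 bases before the RefSeq start on GRCm38.p6, read 5′ to 3′ on the gene's own strand. Capitals mark matches on either strand to CCAAT (the Y box core), to AGNNACNNATG (letters of the X box, where N is any base) and to TGACGTCA (the element that binds CREB, found beside the X box), and no 2 matches overlap. The stretches are chr17:34287824-34287973 on the minus strand for H2-Aa, chr17:34305717-34305866 on the plus strand for H2-Eb1 and chr17:34153041-34153190 on the plus strand for H2-DMb1.
H2-Aa: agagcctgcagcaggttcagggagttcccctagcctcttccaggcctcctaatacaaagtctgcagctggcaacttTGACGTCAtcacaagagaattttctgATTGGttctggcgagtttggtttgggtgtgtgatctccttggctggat
H2-Eb1: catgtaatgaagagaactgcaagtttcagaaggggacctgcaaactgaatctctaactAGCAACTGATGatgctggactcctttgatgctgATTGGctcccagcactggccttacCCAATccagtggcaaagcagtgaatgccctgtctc
H2-DMb1: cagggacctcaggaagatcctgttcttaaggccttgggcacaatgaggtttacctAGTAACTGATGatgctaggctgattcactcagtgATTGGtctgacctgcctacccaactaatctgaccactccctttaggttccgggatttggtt

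In H2-Eb1 the X box letters spanned bases -92 to -82 and a reverse-strand Y box core spanned -59 to -55, counted from the first transcribed base. A further Y box core, on the forward strand, lay at -35 to -31. H2-DMb1 had the same order, with X box letters at -95 to -85 and a reverse-strand Y box core at -61 to -57. H2-Aa held no match to the X box letters in this window. The fixed pattern misses any X box that differs from it, so this does not show that H2-Aa lacks the element. H2-Aa held the palindromic CREB element at -74 to -67 and a reverse-strand Y box core at -48 to -44. Of 32851 promoters in the same table, 24.5% held CCAAT in this window, 1.46% held the X box letters, 1.36% held TGACGTCA and 0.527% held both the X box letters and CCAAT. The interferon gamma-activated site, TTCNNNGAA, matched in none of the 3 stretches and in 4.09% of all promoters. These matches describe letters only.

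FPKM, the deposited unit, divides the fragments of a gene by its transcript length and the library size, so levels can be compared between genes. Cd74 was the most abundant member, with FPKM from 14.0 to 224 and a median of 64.4 over the 18 hearts. H2-Aa followed with 6.67 to 147 (median 34.7), H2-Ab1 with 5.40 to 97.3 (median 24.1) and H2-Eb1 with 4.53 to 68.6 (median 17.3). Ciita lay far below them at 0.108 to 1.61 (median 0.368). The highest heart exceeded the lowest by 22.0-fold for H2-Aa, 18.02-fold for H2-Ab1, 16.0-fold for Cd74, 15.1-fold for H2-Eb1 and 14.9-fold for Ciita. A gene entered the tests when 3 or more libraries reached 1 FPKM, which left 12587. The 4 structural members passed in every heart, and Ciita, which reached 1 FPKM in 1 heart, did not pass. The H2 genes lie on chromosome 17 of mm10 (GRCm38): H2-Ab1 at 34263227 to 34269418, H2-Aa at 34282751 to 34287771 and H2-Eb1 at 34305867 to 34316674. Ciita lies on chromosome 16, at 10480072 to 10527640, and Cd74 on chromosome 18, at 60803849 to 60812652. Each span is the whole gene as the deposited table gives it.

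Between 11679 and 12093 genes reached 1 FPKM in a heart, and markers of heart muscle were abundant, with 6 cardiomyocyte genes summing to 29858 to 61382 FPKM. A single library stood apart for all the members. Replicate 2 of the hearts labelled cKO on PTU had the highest level of each member and also the highest Ccr2 (8.77 FPKM, a receptor of monocytes), Itgax (1.88, CD11c) and Col1a1 (170, a collagen of fibroblasts) of all 18 hearts. It was also highest for Nppa (10081 FPKM), but for no other atrial marker listed. Of the cardiomyocyte genes, Tnni3 (3627), Myl3 (4222) and Ryr2 (49.4) were lowest there, and Tnnt2, Actn2 and Myl2 were not. Its weight in the fit with library weights, 0.513, was the lowest. Differences of the chain genes and Cd74 computed here from the cKO PTU group are given with and without it.

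**Figure D1:**
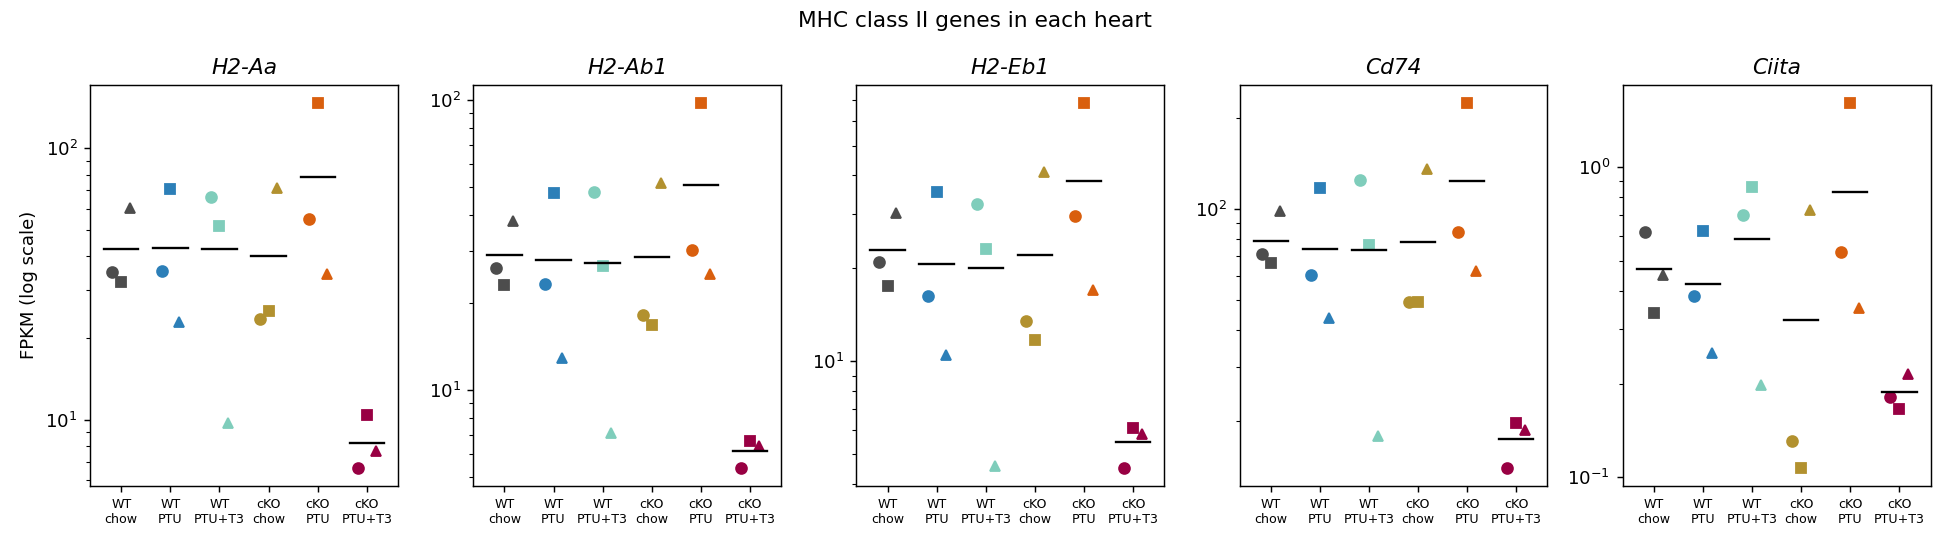
FPKM of the 5 class II genes (log axis) in each of 18 hearts, by group; circles, squares and triangles are replicates 1, 2 and 3, and bars are group means. Replicate 2 of the cKO PTU group is the highest heart in all 5 panels, and the 3 cKO PTU + T3 hearts lie at the bottom of the 4 structural genes together with replicate 3 of WT PTU + T3.

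H2-Ab1 shows the pattern heart by heart. In WT it stood at 26.3, 23.05 and 38.2 FPKM on chow, at 23.2, 47.9 and 12.9 on PTU, and at 48.1, 26.7 and 7.09 after PTU + T3. In the hearts labelled cKO it stood at 18.2, 16.7 and 51.5 on chow, at 30.4, 97.3 and 25.1 on PTU, and at 5.40, 6.67 and 6.40 after PTU + T3. The WT groups overlapped one another fully, with group means of 29.2 ± 8.00, 28.0 ± 17.98 and 27.3 ± 20.5 (SD, n = 3 each). Among the hearts labelled cKO, those given PTU + T3 lay below all others at 6.16 ± 0.668, against 28.8 ± 19.7 on chow and 50.9 ± 40.2 on PTU (SD, n = 3 each).

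H2-Aa, its alpha chain partner, stood in WT at 35.1, 32.2 and 60.4 FPKM on chow, at 35.2, 71.1 and 22.9 on PTU, and at 66.0, 51.9 and 9.71 after PTU + T3. The cKO values were 23.4, 25.1 and 71.6 on chow, at 54.8, 147 and 34.3 on PTU, and at 6.67, 10.4 and 7.66 after PTU + T3. The same hearts were high and low as for H2-Ab1. The third WT heart on PTU + T3, at 9.71, fell inside the range of the cKO PTU + T3 group.

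H2-Eb1 stood in WT at 21.0, 17.6 and 30.2 FPKM on chow, at 16.2, 35.4 and 10.5 on PTU, and at 32.3, 23.2 and 4.59 after PTU + T3. Values in the hearts labelled cKO were 13.5, 11.8 and 41.0 on chow, at 29.6, 68.6 and 17.1 on PTU, and at 4.53, 6.07 and 5.80 after PTU + T3. This beta chain was thus transcribed at 4.53 FPKM or more in every heart. H2-Ea-ps, the row of its alpha chain partner, was listed at the table's floor of 0.01 in all 18 hearts.

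Cd74 stood in WT at 70.8, 66.2 and 98.5 FPKM on chow, at 60.7, 117 and 43.8 on PTU, and at 125, 76.0 and 17.8 after PTU + T3. For the hearts labelled cKO the values were 49.4, 49.3 and 136 on chow, at 84.0, 224 and 62.5 on PTU, and at 14.0, 19.7 and 18.6 after PTU + T3. The order of hearts was again close to that of H2-Ab1, with the third WT heart on PTU + T3 inside the cKO PTU + T3 range.

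Ciita, near the low end of what the table resolves, stood in WT at 0.620, 0.339 and 0.448 FPKM on chow, at 0.383, 0.622 and 0.253 on PTU, and at 0.701, 0.865 and 0.198 after PTU + T3. In the hearts labelled cKO it stood at 0.131, 0.108 and 0.725 on chow, at 0.533, 1.61 and 0.353 on PTU, and at 0.182, 0.166 and 0.216 after PTU + T3. Its highest heart was that of the other 4 members, replicate 2 of cKO PTU. Its lowest were replicates 2 and 1 of cKO chow, below the cKO PTU + T3 hearts.

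By group mean, cKO PTU came first and cKO PTU + T3 last for all 5 members. For H2-Aa the means ran from 78.7 ± 59.9 FPKM in cKO PTU through 43.1 ± 25.0 in WT PTU, 42.6 ± 15.5 in WT chow, 42.5 ± 29.3 in WT PTU + T3 and 40.0 ± 27.3 in cKO chow to 8.24 ± 1.92 in cKO PTU + T3 (SD, n = 3 each). Each group overlapped the next in that order except the last step, from cKO chow to cKO PTU + T3. For H2-Ab1 the last step, there from WT PTU + T3, was again the one without overlap. For H2-Eb1 and Cd74 the last step, from WT PTU + T3 to cKO PTU + T3, did overlap, and so did all steps for Ciita. The 4 middle groups of Cd74 spanned means from 73.0 to 78.5 FPKM, and those of H2-Eb1 from 20.03 to 22.9.

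Spread between hearts of a group was itself a feature of these genes. After subtraction of group means, the residual SD of log2(FPKM + 1) was 0.91 for H2-Aa, 0.87 for H2-Ab1, 0.88 for H2-Eb1 and 0.85 for Cd74, against a median of 0.15 over the 12587 tested genes. Between 0.493% (H2-Aa) and 0.644% (Cd74) of tested genes had a larger SD. For the 4 genes the spread was widest in WT PTU + T3, where the highest heart exceeded the lowest by 6.78-fold for H2-Ab1 and 7.05-fold for H2-Eb1. In cKO PTU + T3 the same ratios were 1.23 and 1.34.

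The members kept nearly constant proportions while their levels moved. Cd74 stood at 2.30 to 3.39 times H2-Ab1 across the 18 hearts (median 2.66, coefficient of variation 9.15%). H2-Aa stood at 1.20 to 1.95 times H2-Ab1 (median 1.44), and H2-Ab1 at 1.03 to 1.55 times H2-Eb1 (median 1.29). H2-Ab1 over Ciita varied more, from 29.6 to 155 (median 60.5, coefficient of variation 52.8%).

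After group means were removed, all 6 pairs of structural members were closely related over the 18 hearts. Pearson's r of log2(FPKM + 1) lay between 0.979 (H2-Aa with H2-Ab1) and 0.991 (H2-Aa with H2-Eb1), and Spearman's rho between 0.965 and 0.988. An exact permutation of hearts within groups gave raw two-sided p = 2.14e-05 for the 3 pairs not involving H2-Aa, the smallest p these arrangements can give. The pairs with H2-Aa gave p = 4.29e-05 for r and 6.43e-05 for rho, again by exact permutation. Adjusted by Benjamini-Hochberg over both coefficients of 12 relations, these exact permutation p-values lay between 8.57e-05 and 0.000129. Without the 2 hearts farthest from the median, r stayed between 0.954 and 0.984. Ciita, described without a test because of its low level, had r = 0.876 to 0.891 with the 4 structural members after removal of group means, and 0.805 to 0.843 without that removal.

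**Figure D2:**
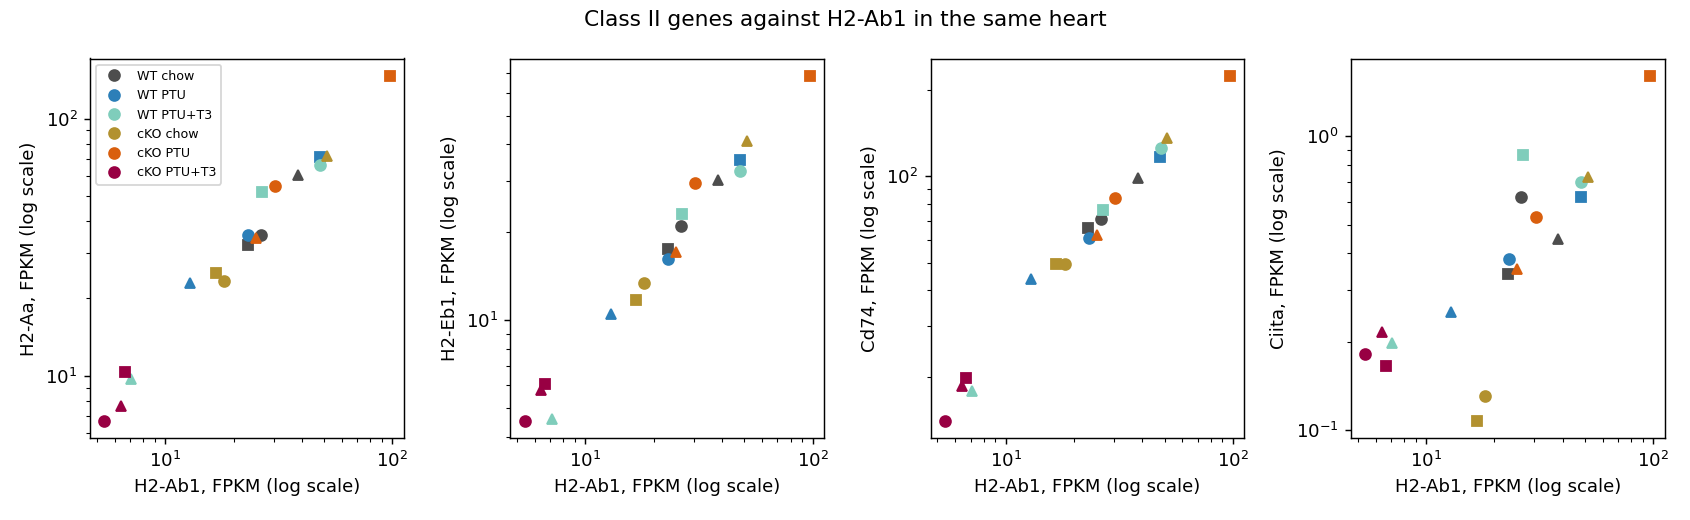
FPKM of H2-Aa, H2-Eb1, Cd74 and Ciita against FPKM of H2-Ab1 in the same heart (both axes log); colours are the 6 groups, and circles, squares and triangles are replicates 1, 2 and 3. The 3 structural genes fall near a line from 5.40 to 97.3 FPKM of H2-Ab1, and Ciita scatters more widely around it.

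The same measure was computed between H2-Ab1 and markers of the cells and signals that could go with it. Cd209a, a gene of monocyte-derived dendritic cells, had r = 0.778 and rho = 0.759, with adjusted p = 0.00546 and 0.00758 by exact permutation, and r = 0.741 without the 2 farthest hearts. Its level was low, at 0.01 to 1.55 FPKM. Ptprc, the pan-leukocyte gene CD45, had r = 0.847 and rho = 0.870, with adjusted p = 0.00916 and 0.00547 by exact permutation, and r fell to 0.654 without the 2 farthest hearts. Csf1r, the receptor that marks macrophages, had r = 0.709 and rho = 0.756 (adjusted p = 0.0276 and 0.0156, exact permutation). Without the 2 farthest hearts its r was 0.374, so this relation rested on those hearts. The endothelial gene Pecam1 gave r = -0.172, and the interferon response gene Irf1 gave 0.248, both with an adjusted p of 0.714 by exact permutation. Itgax, Cd79a and Cd3e were too low to be included.

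In the hearts labelled cKO, all 4 tested members fell with T3 after PTU. Values were compared as log2(FPKM + 1) with limma, a linear model fitted to all tested genes, with Benjamini-Hochberg adjustment within a comparison and a call at adjusted p under 0.05. By this rule 4 of 4 members were called lower, beside 21.8% of the 12587 tested genes called lower and 46.7% called in either direction. The 4 varied closely together from heart to heart (r of 0.979 to 0.991), so they are not 4 separate observations. H2-Aa changed by a log2 fold change of -2.86 (SE 0.702, adjusted p = 0.00452), from 78.7 ± 59.9 to 8.24 ± 1.92 FPKM (SD, n = 3 each; limma). H2-Ab1 changed by -2.60 (SE 0.677, adjusted p = 0.00655), Cd74 by -2.55 (SE 0.653, adjusted p = 0.00582) and H2-Eb1 by -2.39 (SE 0.681, adjusted p = 0.0108) in limma. The median of the 4 was -2.57, beside 0.00 over all tested genes. The groups of all 4, and of Ciita, did not overlap, as was true in the lower direction for 26.9% of tested genes. In whole-heart RNA, fewer cells of a type and less RNA per cell cannot be told apart.

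**Figure D3:**
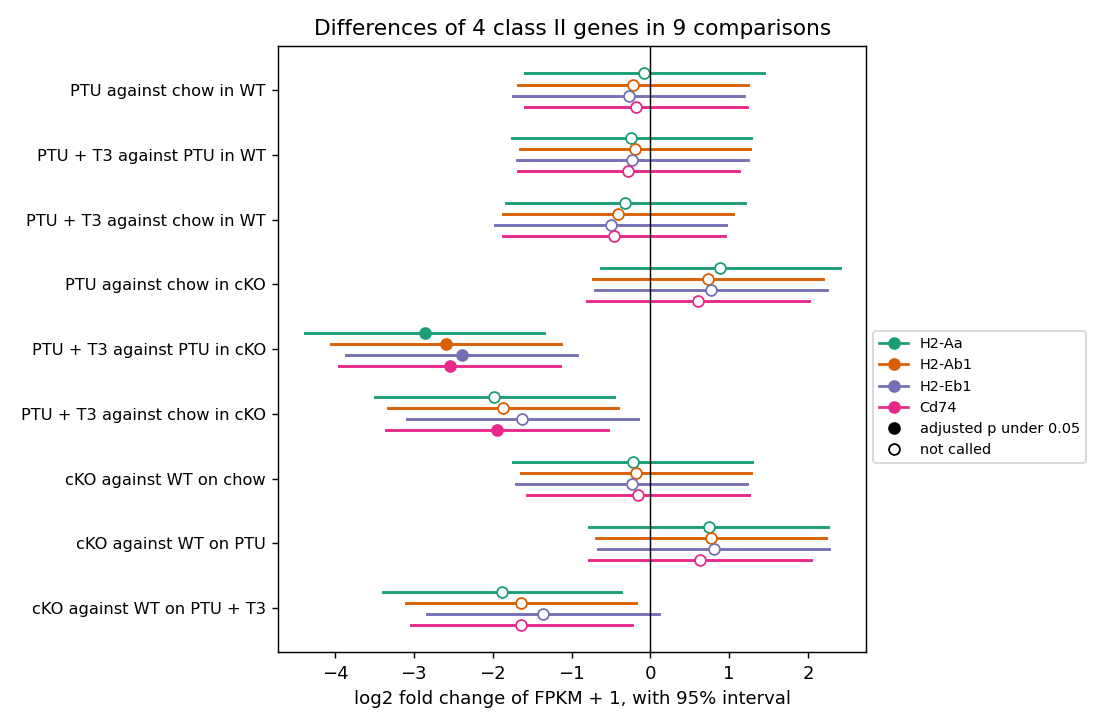
Log2 fold change of FPKM + 1 (points) with 95% intervals (lines) for H2-Aa, H2-Ab1, H2-Eb1 and Cd74 in 9 comparisons; filled points have an adjusted p under 0.05. The 4 genes lie between -2.39 and -2.86 for PTU + T3 against PTU in cKO, and all intervals of the WT comparisons include 0.

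Without replicate 2 of cKO PTU, the heart that stood apart, log2 fold changes of H2-Aa, H2-Ab1 and Cd74 were -2.29, -2.004 and -2.01, with adjusted p of 0.0242, 0.0344 and 0.0317 by limma. H2-Eb1 was no longer called (-1.87, adjusted p = 0.0540, limma). When the heart with the highest summed B cell markers was left out of each group, none of the 4 was called, although the log2 fold changes were -2.36 to -2.86. The adjusted p-values by limma were then 0.0637 to 0.111, from 2 hearts a group.

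Ciita itself, fitted in the same comparison without the filter on low values, changed by -0.56 (SE 0.229, adjusted p = 0.0757, limma). Its mean went from 0.831 ± 0.679 to 0.188 ± 0.0256 FPKM (SD, n = 3 each). The cKO PTU values hold replicate 2, at 1.61 FPKM beside 0.533 and 0.353 in replicates 1 and 3. At such levels the added 1 FPKM compresses a log2 fold change.

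Against chow, T3-treated hearts labelled cKO also lay low, and this comparison shares its PTU + T3 group with the one above. Of the 4 tested members, 1 was called, Cd74, beside 20.9% of all tested genes and 9.15% called lower. Cd74 changed by -1.94 (SE 0.653, adjusted p = 0.0496, limma), close to the threshold. H2-Aa changed by -1.98, H2-Ab1 by -1.87 and H2-Eb1 by -1.62, with adjusted p of 0.0622, 0.0665 and 0.110 by limma. The groups of the 4 did not overlap, as was true in the lower direction for 19.3% of tested genes. The call of Cd74 was lost without any 1 heart of the compared groups. Its adjusted p by limma was then 0.0625 to 0.198, highest without replicate 3 of cKO chow, where the log2 fold change was -1.46. It was also lost without 7 of the 12 hearts of the other groups, which share the estimate of spread. Leaving out single hearts gave between 0 and 3 called members here.

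PTU against chow gave no call for any member in the hearts labelled cKO, where 16% of tested genes were called. The log2 fold changes were 0.60 for Cd74 to 0.88 for H2-Aa, with 95% intervals that all included 0, such as -0.63 to 2.40 for H2-Aa. They were 0.065 for Cd74 to 0.31 for H2-Aa without replicate 2 of cKO PTU.

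In WT hearts no member was called in any treatment comparison by limma. For PTU against chow, where 16.8% of tested genes were called, their log2 fold changes lay between -0.27 and -0.08. For PTU + T3 against PTU, where 44.1% were called, they lay between -0.28 and -0.19. For PTU + T3 against chow, where 14.7% were called, they lay between -0.50 and -0.32. The 95% intervals were wide: that of H2-Aa for T3 after PTU ran from -1.75 to 1.27, an interval that holds 2-fold changes in either direction. The sign for PTU + T3 against PTU turned with single hearts. Without the lowest WT PTU + T3 heart, replicate 3, the 4 log2 fold changes were 0.52 to 0.58, and without replicate 2 of WT PTU they were 0.11 to 0.28.

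Whether T3 after PTU acted on the members differently by genotype was tested as an interaction. The log2 difference between genotypes was -2.62 for H2-Aa (95% interval -4.76 to -0.48), -2.40 for H2-Ab1, -2.27 for Cd74 and -2.16 for H2-Eb1. Raw p-values lay between 0.020 and 0.042, and the adjusted p was 0.696 for all 4 in limma. The differences without replicate 2 of cKO PTU were -2.04 to -1.64, with raw p of 0.0595 to 0.116 and an adjusted p of 0.977 by limma. None of the members was called, as none of the tested genes was (0%; 821 genes had a raw p under 0.05). The other 2 interactions, of PTU against chow and of PTU + T3 against chow, also had 0% of genes called, and the members' smallest raw p was 0.118.

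The genotypes were compared on each treatment. Med13 itself did not separate them: gene-level FPKM was 5.24 to 6.96 in WT and 4.93 to 6.82 in the hearts labelled cKO, so the genotype rests on the labels. On chow the members' log2 differences of cKO minus WT lay between -0.24 and -0.16. On PTU they were 0.63 to 0.80, or 0.094 to 0.28 without replicate 2 of cKO PTU. After PTU + T3 they were -1.88 for H2-Aa, -1.64 for H2-Ab1 and Cd74 and -1.36 for H2-Eb1. After PTU + T3 raw p-values were 0.0185 to 0.0664, with an adjusted p of 0.979 by limma. No member was called on any treatment or in the average over treatments, and neither was any tested gene (0%). Of the 5 members, 1 had groups without overlap after PTU + T3, H2-Ab1, as did 3.73% of tested genes in the lower direction.

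The authors' deposited tables, which hold their own tests, differ on this point. In the authors' deposited table for PTU, all 4 structural members were significant and higher in cKO, with q = 0.00844 each, beside 0.95% of 12318 tested genes. Group values there for H2-Aa were 44.7 FPKM in WT and 82.6 in cKO. In the authors' deposited table for PTU + T3, all 4 were significant and lower in cKO, with q = 0.00736 each, beside 0.991% of 12214 tested genes. Group values there were 41.3 and 7.92 FPKM for H2-Aa, 26.5 and 5.92 for H2-Ab1, 19.5 and 5.26 for H2-Eb1 and 71.0 and 16.8 for Cd74. Each of these 8 results had p = 5e-05, the smallest p in the authors' deposited tables. As the 4 genes varied closely together, these are not 8 separate observations. In the 4 other authors' deposited tables, on chow and between treatments in WT, none of the members was significant, with q of 0.542 or more. Ciita was marked as not tested in all 6 authors' deposited tables. Both sets of tests used the same hearts, and why they differ was not tested. For H2-Ab1, the cKO PTU group holds 1 heart at 97.3 FPKM beside hearts at 30.4 and 25.1. The lowest WT PTU + T3 heart, at 7.09, lies next to the cKO PTU + T3 hearts.

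Both genotypes together were examined with an exact permutation test of single members, in which hearts were exchanged between treatments within a genotype (400 arrangements, two-sided, smallest possible p 0.005). For PTU + T3 against PTU the mean log2 difference was -1.55 for H2-Aa, -1.40 for H2-Ab1, -1.41 for Cd74 and -1.31 for H2-Eb1, with raw exact p of 0.05 to 0.065. For PTU + T3 against chow the 4 differences lay between -1.20 and -1.06, with raw exact p of 0.045 to 0.06. All 8 had an adjusted p of 0.122 over 15 comparisons by this exact permutation. For PTU against chow the differences were 0.21 to 0.40, with raw exact p of 0.43 to 0.63. Without replicate 2 of cKO PTU, the differences for PTU + T3 against PTU were -1.26 to -1.05, with raw exact p of 0.085 to 0.11. Those for PTU against chow were then 0.11 for H2-Aa, -0.042 for H2-Ab1, -0.013 for H2-Eb1 and -0.060 for Cd74. Ciita gave adjusted exact p-values of 0.578 or more. Its difference for PTU + T3 against PTU was -0.21 (raw exact p = 0.385), and -0.066 (raw exact p = 0.635) without replicate 2 of cKO PTU.

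Many macrophage markers rose in the comparison in which the 4 structural members fell. Of 13 macrophage genes, 10 rose and none fell with T3 after PTU in WT (median log2 fold change 1.23, limma), beside 22.3% of all tested genes called higher. In the hearts labelled cKO 8 rose and none fell (median 0.74), beside 24.9% called higher. Called in cKO were Lyve1 (1.64) and Mrc1 (1.12), receptors of resident macrophages, the scavenging protein Cd68 (1.38) and the complement gene C1qa (1.11). Not called there were Adgre1, Fcgr1, Csf1r, Mertk (-0.21) and Cx3cr1 (-0.39), the last 2 with a negative log2 fold change. The summed level of all 13 was 140 to 352 FPKM in cKO PTU and 374 to 439 in cKO PTU + T3. Most of that sum came from the complement genes C1qa, C1qb and C1qc, at 94.3 to 115, 89.6 to 108 and 87.5 to 102 FPKM in cKO PTU + T3. In cKO PTU + T3 the mean of each class II member was the lowest of the 6 groups.

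Relative to the mean of the 13 macrophage genes, each structural member was lower after PTU + T3 than on PTU. The log2 differences were -2.45 for H2-Aa, -2.31 for Cd74, -2.29 for H2-Ab1 and -2.21 for H2-Eb1 over both genotypes. The difference was negative in each genotype, between -1.39 and -1.30 in WT and between -3.55 and -3.08 in cKO. In WT the members' own log2 fold changes were -0.28 to -0.19, and the median of the macrophage genes was 1.23 (limma). The WT difference thus came mostly from the rise of the list. Over both genotypes, each exact permutation p was 0.015, with an adjusted p of 0.04 over 24 comparisons. The quantity tested holds the rise of the list as well as the change of the member. It is therefore no separate test of a fall in the members, which alone gave an adjusted p of 0.122 by exact permutation. Without replicate 2 of cKO PTU the differences over both genotypes were -2.32 to -2.11, each with exact p = 0.015. Against chow, H2-Ab1, H2-Eb1 and Cd74 gave exact p = 0.02 (adjusted 0.04), and H2-Aa gave 0.035 (adjusted 0.0525). For PTU against chow the differences ran the other way, 0.78 to 0.97, with adjusted p of 0.0776 to 0.114 by exact permutation. Those log2 differences were 0.67 to 0.84 without replicate 2 of cKO PTU.

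Class I genes, which present peptides from inside the cell and are made by nearly all cells, were used in the same way. Of 11 class I genes, 6 rose with T3 after PTU in WT (median 0.64, limma), among them H2-K1 (1.48) and B2m (1.45), the heavy chain and its light chain partner, beside 22.3% of all tested genes called higher. None rose in the hearts labelled cKO and 3 fell, H2-T23 (-0.56), Tap1 (-0.59) and Tap2 (-0.51), with a median of 0.04, beside 21.8% of all tested genes called lower and 24.9% called higher. For the difference of this change between genotypes, none of the 11 was called, as none of the tested genes was (0%, limma). In WT PTU + T3 the 11 genes summed to 1360 FPKM in replicate 1, beside 703 and 785 in replicates 2 and 3. Relative to the mean of these 11 genes, the structural members were lower after PTU + T3 than on PTU by 1.62 to 1.86 on the log2 scale. The exact permutation p was 0.02 to 0.025, with an adjusted p of 0.04 for each. This quantity, too, holds the change of the list, which rose in WT, as well as that of the member. The log2 differences were -1.60 to -1.39 without replicate 2 of cKO PTU, with exact p of 0.02 to 0.025. With the median of the class I genes in place of the mean, the H2-Eb1 difference was -1.12 with exact p = 0.06. It was -1.38 with exact p = 0.055 without replicate 2 of WT PTU, and its exact p was 0.05 without any 1 of the cKO PTU + T3 hearts.

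**Figure D4:**
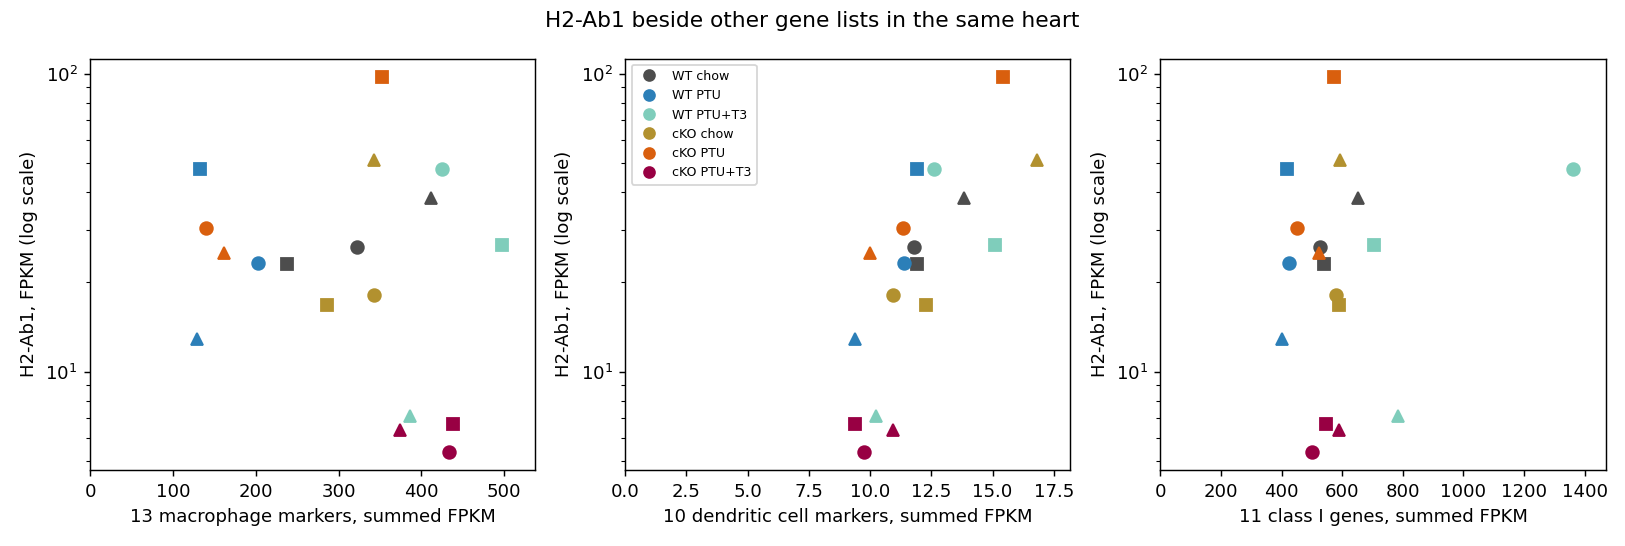
FPKM of H2-Ab1 (log axis) in each heart against the summed FPKM of 13 macrophage markers, 10 dendritic cell markers and 11 class I genes (linear axes); colours are the 6 groups, and circles, squares and triangles are replicates 1, 2 and 3. The 3 cKO PTU + T3 hearts combine 374 to 439 FPKM of macrophage markers, mostly C1qa, C1qb and C1qc, with the lowest H2-Ab1 levels.

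Other cell types that carry class II molecules left little RNA. The 10 dendritic cell markers summed to 10.001 to 15.4 FPKM in cKO PTU and 9.40 to 10.9 in cKO PTU + T3, and none of the 4 that passed the filter was called. Most of that sum came from Zbtb46, Cd24a and Clec9a, at 4.22 to 6.14, 1.76 to 2.63 and 1.84 to 2.12 FPKM in cKO PTU. The more specific Flt3 and Xcr1 stayed under 0.510 and 0.356 FPKM in all hearts. Cd209a was 0.662, 1.55 and 0.150 FPKM in cKO PTU and 0.233, 0.01 and 0.0828 in cKO PTU + T3, with a log2 fold change of -0.62 (adjusted p = 0.108, limma). The 7 B cell markers summed to 1.76 to 2.37 FPKM in cKO PTU and 1.16 to 2.24 in cKO PTU + T3. The highest sum, 14.1 FPKM, was in replicate 2 of WT PTU + T3, where H2-Ab1 was 26.7 FPKM. Thymus markers, a check for tissue taken along with the heart, summed to at most 0.679 FPKM, and 2 of the 8 stood at the floor in all hearts. The 5 monocyte markers summed to 2.95 to 22.3 FPKM in cKO PTU and 14.02 to 15.6 in cKO PTU + T3, with none called. The part of these cells in the fall of class II transcripts was not tested. The relations above had group means removed, and the macrophage comparison holds the rise of its list.

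Of the genes that load peptides onto class II molecules, H2-DMa and H2-DMb1 passed the filter. In the hearts labelled cKO, H2-DMb1 stood at 2.61, 9.07 and 3.72 FPKM on PTU and at 2.06, 1.46 and 1.66 after PTU + T3, with a log2 fold change of -1.03 (SE 0.390, adjusted p = 0.0413, limma), a call. H2-DMa stood at 2.19, 6.99 and 2.91 on PTU and at 1.69, 1.80 and 1.46 after PTU + T3, with -0.81 (SE 0.357, adjusted p = 0.0756, limma). The call of H2-DMb1 was lost under 12 of 28 alternatives. The adjusted p by limma was 0.0594 with no filter on low values, 0.0605 with the groups compared alone and 0.0612 with library weights. It was 0.133 without the hearts highest in atrial markers, 0.0526 without those highest in B cell markers and 0.221 without both hearts highest in Col1a1. Without replicate 2 of cKO PTU the log2 fold change was -0.60 (adjusted p = 0.204, limma), and without replicate 1 of WT chow, replicate 3 of cKO PTU or any 1 of the cKO PTU + T3 hearts the adjusted p was 0.0508 to 0.107. Neither gene was called in any other comparison. Both were highest in the heart that was highest for the members. The remaining 5 genes of that list in the table, H2-DMb2, H2-Oa, H2-Ob, H2-Eb2 and H2-Ea-ps, stayed at or under 2.59 FPKM and did not pass.

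**Figure D5:**
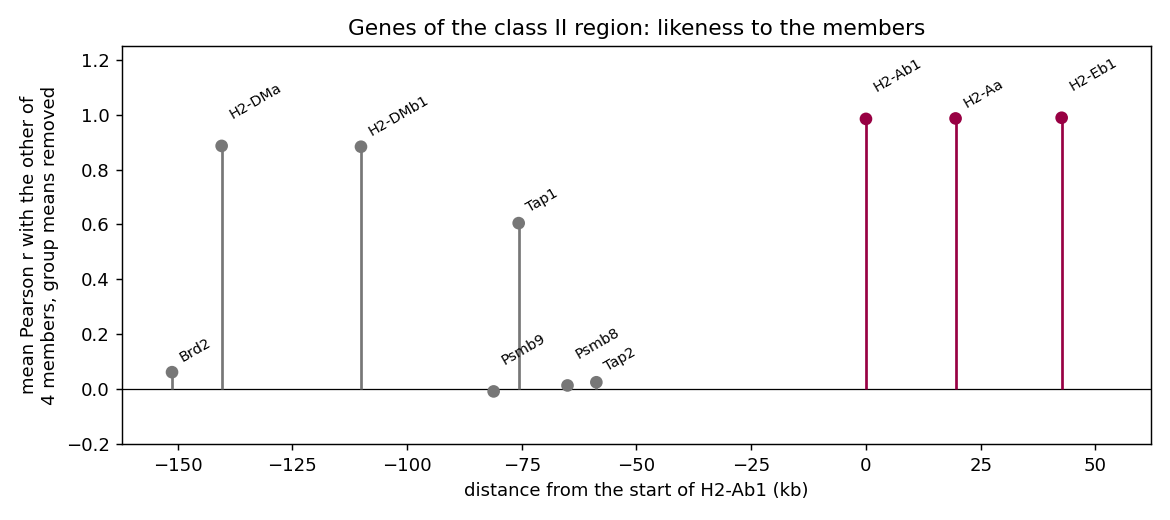
Mean Pearson r of log2(FPKM + 1) with the structural members, group means removed, for the 10 tested genes of the class II region, plotted by distance of the gene's lower end from that of H2-Ab1 (kb). H2-DMa and H2-DMb1 reach 0.886 and 0.883, and Brd2, Psmb8, Psmb9 and Tap2 stay between -0.00768 and 0.0623.

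The likeness was not shared by the whole class II region. H2-DMa, which lies next to Brd2, and H2-DMb1 had a mean r of 0.886 and 0.883 with the 4 structural members after removal of group means. Brd2 (0.0623), Psmb9 (-0.00768), Psmb8 (0.0140) and Tap2 (0.0256) had values near 0, and Tap1, a peptide transporter subunit of the class I pathway, had 0.605. Each structural member of the region had 0.984 to 0.989 with the other members.

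Among all tested genes, those most like the 4 structural members after removal of group means were Gna13 (mean r 0.957), Mthfd2 (0.921), Fbxo42 (0.888), H2-DMa (0.886), H2-DMb1 (0.883), Sav1 (0.873), Gm2a (0.864) and AI467606 (0.862), over 18 hearts. Gna13, a G protein alpha subunit, varied little in level, from 8.12 to 10.9 FPKM. Without removal of group means the 8 highest were Hs2st1 (0.873), Gna13 (0.873), H2-DMa (0.865), Arf3 (0.859), Glt8d2 (0.857), Rhou (0.849), H2-DMb1 (0.846) and Zc2hc1a (0.845). These are descriptions over 18 hearts, with all genes measured in the same libraries and no test.

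Factors that sit on class II promoters were compared next. Of 7 such genes, all tested, 1 rose and 1 fell with T3 after PTU in the hearts labelled cKO: Nfyc, a subunit of the Y box factor NF-Y, by 0.41, and Rfxank, a subunit of the X box factor RFX, by -0.42 (limma). Of all tested genes, 46.7% were called there. In WT, Rfxank fell by 0.36 and none rose, where 44.1% of tested genes were called. Rfx5, the DNA-binding RFX subunit, stayed between 1.75 and 3.05 FPKM in all hearts, with a log2 fold change of 0.14 for T3 after PTU in cKO (adjusted p = 0.395, limma).

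Interferon gamma is the main known inducer of Ciita outside professional antigen-presenting cells. Ifng was listed at the floor in 15 of 18 hearts and reached 0.145 FPKM at most. Of 11 tested genes of its signalling, 7 rose and none fell with T3 after PTU in WT (median 0.53, limma), led by Gbp3 (2.06) and Gbp2 (1.13), interferon-induced GTPases, beside 22.3% of all tested genes called higher. In the hearts labelled cKO, 4 rose and 1 fell (median 0.09): Gbp3 (1.39), Gbp2 (0.81), the receptor subunit Ifngr2 (0.78) and the transcription factor Irf1 (0.38) rose, and the receptor subunit Ifngr1 (-0.32) fell. These 5 of 11 stand beside 46.7% of all tested genes called there, a share near that of the list.

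Of the genes that process antigen in the endosome, 7 of 11 listed symbols were found and tested. With T3 after PTU in cKO, Ctsb (0.64), Lgmn (0.56) and Ctsl (0.45), all lysosomal proteases, rose and the protease Ctsd (-0.56) fell (limma), 4 of 7 beside 46.7% of all tested genes. Ctss, the protease that trims the invariant chain, was not called (-0.01, adjusted p = 0.990). Of the costimulatory genes, which give T cells the second signal, 4 of 6 were tested and none was called in that comparison.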

How the data were processed

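RNA sequencing of 18 hearts gave 1 FPKM value per gene and library, deposited by the authors. Per the submitters' processing notes, Bowtie2, Cufflinks and mm10 were used. Versions and annotation are not given in the sources used here. Per the labels' protocols, polyA libraries came from a TruSeq kit, version 2, so overlapping genes on opposite strands cannot be told apart. Also deposited by the authors were 6 comparison tables, read for FPKM, p-values and q-values. Hearts were grouped by their genotype and treatment labels. The members and gene lists were chosen with earlier results of these data known. Named genes are all members, at most 4 called genes a list and the 8 most alike.

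Genes with 1 FPKM in 3 libraries were analysed as log2(FPKM + 1), which understates changes of low genes. A model of 6 group means over 18 libraries was fitted with limma 3.58.1 in R 4.3.3 (trended, robust prior, 12 residual degrees of freedom) and checked on simulated data. Exact permutations used NumPy 2.4.6. Alternatives were another pseudocount, other filters, scalings, library weights, fits to the groups compared alone, and left-out hearts. Read totals are unknown; steps between low values put relative depth within 1.54-fold. Excluded were 2 genes with failed estimates. In the table, 27 symbols had been turned into dates, so the ubiquitin ligase genes of the March family were not analysed here. Of the 12 relations computed, 1 is not reported here.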

Additional observations from a re-analysis of the deposited data

How the results depend on the processing

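The fall of the 4 structural members with T3 after PTU in the hearts labelled cKO kept its direction under every alternative run and stayed called for 3 or 4 members under all but 1. Without the heart highest in B cell markers of each group, 0 members were called, from 2 hearts a group. Without replicate 2 of cKO PTU, and, in an alternative chosen after seeing the data, without both hearts highest in Col1a1, 3 were called. The call of Cd74 for PTU + T3 against chow in cKO was not stable: the count of called members was 0 with no filter on low values, with median ratio scaling, with quantile normalization and without the hearts highest in atrial or B cell markers. It was 3 without the trended, robust prior, with the groups compared alone and with library weights, and 0 to 3 without single hearts. The count of called members stayed at 0 in the other 11 limma comparisons under every alternative run.

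Small differences that were not called changed sign when hearts were left out, and the cause was not tested. Leaving out single hearts gave log2 fold changes for PTU against chow in WT of -0.51 to 0.29 for H2-Aa, -0.69 to 0.22 for H2-Ab1, -0.73 to 0.10 for H2-Eb1 and -0.57 to 0.13 for Cd74. For PTU + T3 against PTU in WT these were -0.74 to 0.58 for H2-Aa, -0.76 to 0.54 for H2-Ab1, -0.74 to 0.55 for H2-Eb1 and -0.85 to 0.52 for Cd74, and for PTU + T3 against chow in WT -0.82 to 0.51 for H2-Aa, -0.98 to 0.32 for H2-Ab1, -1.01 to 0.28 for H2-Eb1 and -1.04 to 0.33 for Cd74. For cKO against WT on chow they were -0.73 to 0.054 for H2-Aa, -0.68 to 0.10 for H2-Ab1, -0.78 to 0.077 for H2-Eb1 and -0.64 to 0.084 for Cd74. Over both genotypes, PTU against chow gave -0.042 to 0.51 for H2-Ab1, -0.013 to 0.52 for H2-Eb1 and -0.060 to 0.45 for Cd74, and PTU + T3 against chow gave -0.080 to 0.089 for Ciita. Without the hearts highest in atrial markers, PTU against chow in WT gave 0.26 for H2-Aa, 0.025 for H2-Ab1, 0.018 for H2-Eb1 and 0.066 for Cd74, cKO against WT on chow gave 0.28 for H2-Aa, 0.31 for H2-Ab1, 0.29 for H2-Eb1 and 0.26 for Cd74, and the genotype average gave 0.093 for H2-Ab1, 0.18 for H2-Eb1 and 0.011 for Cd74. Without the hearts highest in B cell markers, PTU against chow in WT gave 0.56 for H2-Aa, 0.42 for H2-Ab1, 0.31 for H2-Eb1 and 0.30 for Cd74, and cKO against WT on chow gave 0.33 for H2-Aa, 0.25 for H2-Ab1, 0.20 for H2-Eb1 and 0.26 for Cd74.

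With 3 hearts a group, an exact test of 1 gene in 1 genotype cannot go below p = 0.1, and read totals are unknown. A covariate for sex was not run because Xist stayed at or under 0.267 FPKM in all hearts. No paired analysis was possible because the columns carry no replicate numbers shared across groups.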
